A study of Drosophila melanogaster with 6 samples.

Results

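The genes described here are those whose transcripts were far lower in enteroblasts (EBs) of *Sox21a* flies than in control EBs. One transcript was taken for each gene, the one with the highest mean over the 6 libraries. A gene became a member when its lowest control value was at least 100 and at least 3 times its highest *Sox21a* value, and genes whose symbols in the deposited table start with Gst, or with Cyp, Jon or CR and a digit, were left out. The members were thus chosen by the control and *Sox21a* values of all 6 libraries. This gave 63 members of 17321 genes in the table. Of the 6853 genes with a lowest control value of at least 100, 77 (1.12%) passed both thresholds, and the 14 left out by symbol were 6 Jon, 3 Cyp, 1 Gst and 4 CR genes. Since these values are the contrast itself, the differences of the members are given as a description and carry no test.

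In the adult midgut, intestinal stem cells divide to renew themselves and to produce EBs, which switch on Notch signalling and mature into enterocytes, the absorptive and secretory cells that make digestive enzymes, while enteroendocrine cells make peptide hormones. Sox21a belongs to the SOX transcription factors, which bind DNA through an HMG domain, and is expressed in the progenitors. The study asked which transcripts change in EBs that lack it.

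The EBs were GFP-positive cells sorted from pools of adult females kept at 25 °C for 16 to 18 days. Both groups carried Su(H)GBE-Gal4 and UAS-CD8::GFP, a driver that responds to Notch signalling, so that the gate itself depends on that pathway. The 3 *Sox21a* libraries came from homozygous mutants, whose alleles are small frameshift deletions made by CRISPR, and which allele was sorted is not given in the sources used here. The 3 control libraries are wild-type in the sample labels and Sox21a/+ in the methods. The labels name the anterior midgut, and mRNA was linearly amplified before sequencing. In sorted pools of this kind, fewer cells of a type and less RNA per cell cannot be told apart.

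A normalized value is the number of reads in the exons of a transcript divided by a size factor of the library. In each library the values were whole multiples of a fixed step, summing to between 37286049 and 45955837 steps, and a value of 5 steps or less (between 4.92 and 5.58) was taken as the detection limit. Replicate libraries correlated at 0.974 to 0.991 over the tested transcripts and libraries of different groups at 0.915 to 0.930, across transcripts, which are not independent replicates. Control library 1 stood somewhat apart, with a median absolute log2 difference of 0.371 and 0.357 from control libraries 2 and 3, which differed from each other by 0.214. Without control library 1 the rule gave 106 members, and leaving out a library can only keep or add members.

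The *Sox21a* gene itself (3L, 14103481 to 14108118) was read at 14123, 17337 and 16780 in the control libraries and at 14474, 14697 and 19025 in the *Sox21a* libraries. The groups overlapped and differed by -0.01 on the log2 scale (SE 0.18, adjusted p = 0.98, limma with Benjamini-Hochberg adjustment), so its transcript level does not check the genotype labels. A small deletion inside the coding sequence would not be seen in a count over its exons.

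Markers of progenitors were abundant in both groups. *esg*, a zinc finger factor of midgut progenitors, was read at 35410, 46683 and 40655 in the control and at 11946, 15298 and 15760 in the *Sox21a* libraries. Of 8 progenitor markers, 4 were lower by the test and none was higher. Over all tested genes, 10.2% were lower and 24.2% higher. Enterocyte markers were also present, summing to between 38845 and 69531 in the control and between 19119 and 22992 in the *Sox21a* libraries, and 5 of 8 were lower, or 3 of 8 without control library 2 or any 1 of the *Sox21a* libraries. Enteroendocrine markers differed the other way in sum, between 785 and 1229 in the control and between 2265 and 5955 in the *Sox21a* libraries, while the peptide genes *AstA*, *CCHa1* and *Mip* were near the floor in both. Of 7 tested enteroendocrine markers, the peptide genes *CCHa2* and *Tk* were higher and the transcription factor gene *pros* was lower. *Tk* was not called with rescaled libraries (adjusted p = 0.091, limma) or without any 1 library other than *Sox21a* library 3, and *pros* was not called without *Sox21a* library 2 or 3 or control library 2. All 5 tested haemocyte markers were called. *Sr-CI*, *srp*, *Col4a1* and *vkg* were lower, *Col4a1* not without *Sox21a* library 2 or 3, and *crq* was higher. The haemocyte markers summed to between 10022 and 10903 in the control and between 15509 and 18929 in the *Sox21a* libraries, and *crq* made up most of this sum. Of 3 tested tracheal markers *btl* and *trh* were higher, *trh* not with rescaled libraries (adjusted p = 0.065, limma) or without *Sox21a* library 1 or 2 or control library 2, and the sums were 691 to 954 and 1541 to 2277. Of 3 tested visceral muscle markers *sls* was higher, with sums of 67.2 to 121 and 152 to 171. The haemocyte genes *Hml*, *NimC1*, *eater* and *He* stayed at or near the floor, and so did the yolk protein genes *Yp1* and *Yp2* of the fat body and the muscle myosin gene *Mhc*. The part of these changes in cell markers in the results on the members was not tested.

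Over all 9571 genes tested with limma on log2(value + 1), 977 (10.2%) were lower and 2316 (24.2%) were higher in *Sox21a* EBs at an adjusted p under 0.05. With libraries rescaled by the median of ratios of abundant transcripts, the counts were 1450 (15.1%) lower and 1648 higher, and the median over tested genes moved from 0.24 to 0.05 on the log2 scale. For 1455 genes (15.2%) all *Sox21a* values were below all control values, a property that the rule gives to each member.

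The 63 members had a median log2 fold change of -3.34 and a median ratio of the lowest control to the highest *Sox21a* value of 5.55. The ratio was at least 10 for 17 members, between 5 and 10 for 16 and under 5 for 30, of which 18 were under 4. Control means ran from 121 to 49907 with a median of 480, and 25 members had a control mean of at least 1000. All 63 had a mean of at least 10 and passed the filter of the test. In at least 1 *Sox21a* library, 8 members were at the detection limit, and none was at it in all 3.

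**Figure D1:**
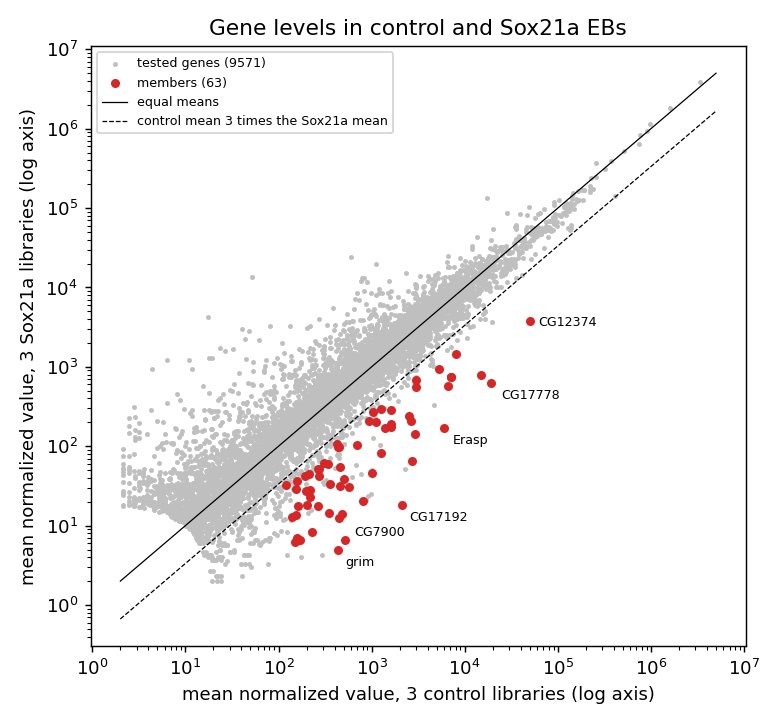
Mean normalized value of each tested gene in the 3 control libraries (x axis, log scale) and the 3 Sox21a libraries (y axis, log scale), with the 63 members in red, the line of equal means solid and a 3-fold difference dashed. The members lie below the dashed line at control means from 121 to 49907, and CG17192, CG7900 and grim lie farthest below it among the named genes.

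Together the members took 0.527%, 0.498% and 0.362% of the normalized values summed over all genes, with 1 transcript per gene, in the control libraries. In the *Sox21a* libraries their share was 0.0400%, 0.0487% and 0.0333%. The groups did not overlap, which the rule fixes. Overlapping members, *Pepck1* with *CG45087* and *CG4174* with *CG13380*, were each counted in these shares. A single gene, *CG12374*, was the most abundant member in all control libraries.

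Among the peptidases, *CG12374* (FBgn0033774, 2R, 12762113 to 12763825), which encodes a metallocarboxypeptidase, was read at 47719, 72266 and 29735 in the control libraries and at 1073, 6378 and 3996 in the *Sox21a* libraries. Both groups varied widely, and the lowest control value was 4.66 times the highest *Sox21a* value. Per kilobase of exon its control level was 34089, above 98.9% of tested coding genes. *Erasp* (2R, 15689826 to 15691014), a serine protease gene, was read at 5462, 5536 and 7034 in the control and at 228, 161 and 124 in the *Sox21a* libraries. The control mean of *Erasp* was 35.2 times the *Sox21a* mean, the largest factor of the 7 peptidase genes.

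The other peptidase members spanned a narrower range. *CG17145*, another serine protease gene, had 1633 ± 388 in control and 188 ± 75.5 in *Sox21a* EBs (SD, n = 3 each). *CG33127*, a serine protease homologue, had 2983 ± 294 and 680 ± 159. The aminopeptidase genes *CG8773* and *CG31233* were expressed lower, at 218 ± 36.7 and 271 ± 54.2 in control EBs and 27.8 ± 12.4 and 52.1 ± 11.1 in *Sox21a* EBs. *Ance*, a homologue of angiotensin-converting enzyme that removes dipeptides, stood close to the threshold with 334, 577 and 394 against 96, 107 and 92.5, a ratio of 3.12.

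The 7 lipid members had a median log2 fold change of -4.37. *CG17192* (3R, 27017180 to 27018287) and *CG6295* (3R, 27005899 to 27007055) encode lipases and lie 10125 bases apart. *CG17192* was read at 1939, 3376 and 1076 in the control and at 10, 13 and 31.5 in the *Sox21a* libraries. *CG6295* was read at 1864, 4660 and 1544 in the control and at 15, 133 and 48.2 in the *Sox21a* libraries. Control library 2 was the highest for both genes, and *Sox21a* library 1 the lowest. The control means were 117 times the *Sox21a* mean for *CG17192* and 41.1 times for *CG6295*.

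*CG7900*, which encodes an amidase of the fatty acid amide hydrolase family, was read at 411, 556 and 600 in the control and at 13, 3 and 3.93 in the *Sox21a* libraries, of which 2 were at the detection limit. *Acbp5*, an acyl-CoA binding protein gene with 337 exon bases, had 2338, 2970 and 3568 in the control and 157, 113 and 153 in the *Sox21a* libraries. Per kilobase its control level was 8778, above 97.3% of tested coding genes. The remaining lipid members had lower control levels. *CG9394*, a glycerophosphodiester phosphodiesterase gene, had 215 ± 62.5 against 22.9 ± 8.04, *CG1941*, of the diacylglycerol acyltransferase family, had 265 ± 33.8 against 51.1 ± 1.63, and the transporter gene *SLC22A* had 215 ± 14.2 against 44.1 ± 3.42 (SD, n = 3 each).

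Related genes did not share one pattern. Of 5 tested Acbp genes, *Acbp3* was also lower (15.5, 36.8 and 24.8 against 4, 11 and 2.95, adjusted p = 0.015, but 0.054 without *Sox21a* library 1 and 0.051 without *Sox21a* library 3) and *Acbp6* was higher (69.3, 249 and 254 against 769, 707 and 883, log2 fold change 2.25, adjusted p = 0.012, limma). Among the 10 lipase genes tested from a list of 24, 4 were lower and none higher, and the median log2 fold change was -1.65. Over all tested genes, 10.2% were lower and 24.2% higher. Besides the 2 members, which the rule chose, the lower lipase genes were *CG6296*, 430 bases from *CG6295*, with 216, 343 and 91.0 against 6, 15 and 4.92 (adjusted p = 0.0011), and *Lip4* with 1119, 735 and 1044 against 310, 320 and 287 (adjusted p = 0.0010, limma). *CG6296* missed membership by its control library 3 alone, which was under 100.

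Trypsin-like proteases, a list that holds no member, had 5 genes lower and none higher of 11 tested, beside 10.2% lower and 24.2% higher of all tested genes. *betaTry* was read at 13115, 23928 and 11950 in the control and at 2893, 3124 and 5976 in the *Sox21a* libraries (log2 fold change -2.04, adjusted p = 0.0057, limma). The count was 9 without control library 1 and 3 without *Sox21a* library 1 or control library 2. For carbohydrate digestion the counts were 5 lower and 3 higher of 15 tested. The 3 higher genes were *Mal-A6*, *tobi* and *Treh*, encoding a maltase, an alpha-glucosidase and the trehalase, and 1 was higher with rescaled libraries or without any control library or *Sox21a* library 3. The lower count was 2 without *Sox21a* library 3 or control library 2 and 3 without *Sox21a* library 2. With the replicate number as a block 3 were lower, *Amy-d* and *LManI* having adjusted p of 0.064 and 0.089 in that fit. How reads that match several related genes, such as *alphaTry* and *betaTry* or *Amy-p* and *Amy-d*, were assigned is not given. The genes counted in these lists may therefore not be separate measurements.

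**Figure D2:**
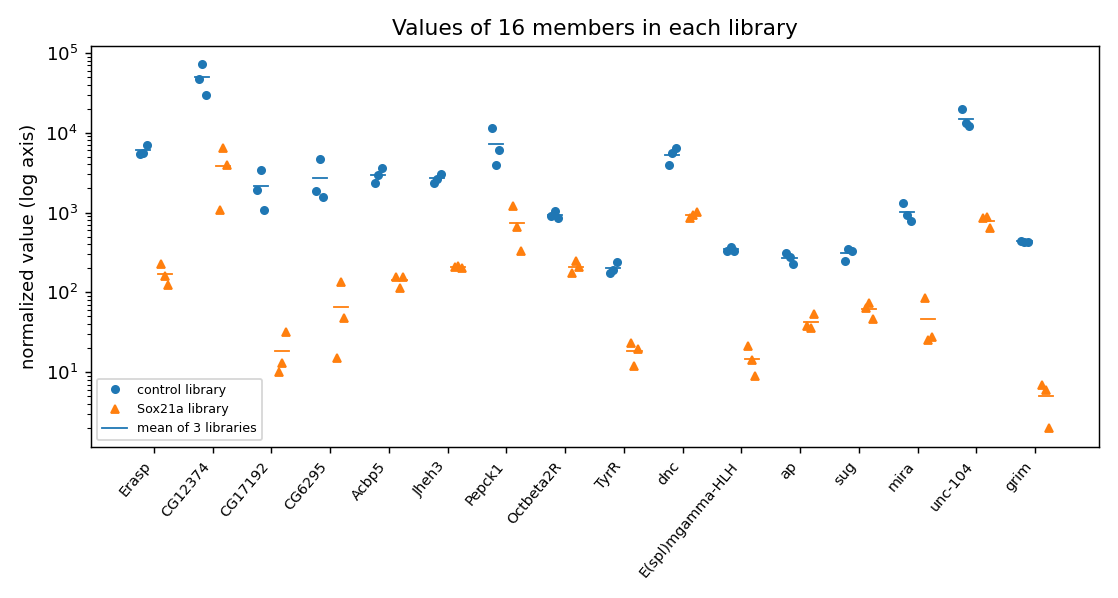
Normalized value (y axis, log scale) of 16 named members in each control library (blue circles) and each Sox21a library (orange triangles), with a bar at the mean of the 3 libraries. The control values of CG12374 ran from 29735 to 72266 and those of CG6295 from 1544 to 4660.

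Genes of sugar and xenobiotic metabolism formed a further group of 7. *Pepck1* (2R, 18536767 to 18539416), phosphoenolpyruvate carboxykinase, which makes the committed step of gluconeogenesis, was read at 11420, 3989 and 6084 in the control and at 1221, 659 and 331 in the *Sox21a* libraries. The control libraries varied widely, with library 1 well above the others, and the groups were apart by a ratio of 3.27. *CG45087* shares all of its 2486 exon bases with *Pepck1* and had nearly the same values, so the pair is 1 measurement. The adjacent *Pepck2* had 219, 67.0 and 74.5 against 51, 42 and 19.7 and an adjusted p of 0.057, or 0.024 with the replicate number as a block.

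*Jheh3*, a juvenile hormone epoxide hydrolase gene, was among the most reproducible members, with 2359, 2659 and 2998 in the control and 206, 213 and 205 in the *Sox21a* libraries. The other genes of its cluster were not called. *Jheh2*, 2130 bases away, had 4058, 3851 and 3683 against 4529, 5158 and 4400 (adjusted p = 0.17), and *Jheh1* had 1586, 2011 and 1565 against 1532, 2229 and 1039 (adjusted p = 0.68, limma). *AOX3*, an aldehyde oxidase gene, had 1112 ± 143 in control and 202 ± 18.1 in *Sox21a* EBs, while *AOX1*, 5456 bases away, had 2996, 2211 and 1912 against 3363, 3266 and 3117 (adjusted p = 0.098 by limma, or 0.014 without control library 1, in the opposite direction to *AOX3*). The differences between these neighbours were not themselves tested.

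*Ugt37A3*, a UDP-glycosyltransferase gene, had 630, 530 and 547 in the control and 29, 46 and 16.7 in the *Sox21a* libraries. The family as a whole was mixed, with 8 of 26 tested Ugt genes lower, *Ugt37A3* included, and 7 higher, beside 10.2% lower and 24.2% higher of all tested genes. *CG12896*, a peroxiredoxin gene, had 7973 ± 1885 and 1463 ± 585. *Prx6b*, 1409 bases away, had similar levels of 9016, 7550 and 5876 against 2922, 3500 and 1399 (adjusted p = 0.013, limma), and how reads that match both copies were assigned is not given, so the split between them is uncertain. *CG6830*, annotated among ecdysteroid kinase-like genes, had 426 ± 62.6 and 106 ± 13.5 (SD, n = 3 each), with a ratio of 3.23 near the threshold.

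Members on the cell surface or in receptor signalling numbered 9, with a median ratio of 6.85. A pair of receptors for biogenic amines were among them. *TyrR* (3R, 17750129 to 17763188), a tyramine receptor, was read at 175, 190 and 237 in the control and at 23, 12 and 19.7 in the *Sox21a* libraries. *Octbeta2R* (3R, 12550625 to 12595725), an octopamine receptor coupled to cAMP, was read at 909, 1053 and 848 in the control and at 175, 245 and 206 in the *Sox21a* libraries. Its neighbour *Octbeta3R* (49.6, 45.8 and 52.8 against 46, 41 and 47.2, adjusted p = 0.48) and *Octbeta1R* (123, 209 and 267 against 224, 251 and 261, adjusted p = 0.35) were not called by limma.

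*dnc*, the cAMP phosphodiesterase known from learning mutants, was the most abundant of the signalling members. Its values were 3935, 5492 and 6469 in the control and 864, 938 and 1021 in the *Sox21a* libraries. *Sema1a*, a transmembrane semaphorin that acts in axon guidance, had 2204, 3047 and 2331 against 202, 196 and 322. *Sema2b*, a secreted semaphorin, was just outside the rule with a ratio of 2.87.

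*dpr10*, an immunoglobulin-domain surface protein gene known from synaptic partner matching, had 217, 162 and 127 in the control and 8, 8 and 3.93 in the *Sox21a* libraries. The gene on its left, *dpr6*, 8094 bases away, had 4.14, 2.23 and 4.14 against 47, 35 and 22.6 and was higher (adjusted p = 0.00053, limma), and the gene on its right, *ect*, 4168 bases away, had 90.0, 51.4 and 89.0 against 3, 5 and 1.97 and was lower (adjusted p = 0.00016). The adhesion gene *hbs*, of the nephrin family, had 156 ± 23.0 and 13.6 ± 5.01, and *smal*, a discoidin domain receptor, had 457 ± 34.3 and 54.4 ± 2.28. *Tsp42Eq*, a tetraspanin, had 1162, 1435 and 2302 against 150, 169 and 203. Of 15 tested genes of the Tsp42E cluster 3 were lower, *Tsp42Eq* included, and 5 higher, beside 10.2% lower and 24.2% higher of all tested genes. Of the lower ones other than *Tsp42Eq*, neither *Tsp42Eg* nor *Tsp42Er* was called without *Sox21a* library 2 or control library 2 or 3, *Tsp42Eg* was not without *Sox21a* library 1, and *Tsp42Er* was not without *Sox21a* library 3 or with the replicate block (adjusted p = 0.056, limma). *Tmhs*, a tetraspan membrane protein gene, had 1256 ± 296 and 297 ± 2.52 (SD, n = 3 each).

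The transcription group had 4 members. *E(spl)mgamma-HLH* (3R, 25999851 to 26000761), a bHLH repressor that Notch signalling switches on, was read at 332, 373 and 333 in the control and at 21, 14 and 8.85 in the *Sox21a* libraries, a ratio of 15.8. Other genes of the same complex were lower by less. *E(spl)m3-HLH* had 10011, 13148 and 11349 against 3006, 3132 and 3504 (log2 fold change -1.83, adjusted p = 0.00031), *E(spl)malpha-BFM* had a log2 fold change of -1.29 (adjusted p = 0.013) and *E(spl)mbeta-HLH* one of -0.81 (adjusted p = 0.0081, limma). In all, 4 of 8 tested genes of the complex were lower and none was higher, beside 10.2% lower and 24.2% higher of all tested genes. The 4 include *E(spl)mgamma-HLH*, which the rule chose. *E(spl)mdelta-HLH*, 1218 bases from the member, had a log2 fold change of 0.57 (adjusted p = 0.12). The receptor gene *N* had 7238, 8685 and 9636 against 4691, 5133 and 7808, with an adjusted p of 0.0999, or 0.045 with the replicate number as a block and 0.032 without *Sox21a* library 3.

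*tara*, a SERTA-domain regulator, had 3603, 2942 and 2525 in the control and 584, 543 and 548 in the *Sox21a* libraries. *ap*, a LIM homeodomain factor that patterns the wing, had 312, 278 and 225 against 38, 36 and 54.1. *sug*, a zinc finger factor of sugar responses, had 245, 353 and 330 against 64, 73 and 46.2. The *Sox21a* libraries differed little among themselves for *tara* (558 ± 22.4) but more for *ap* (42.7 ± 9.92) and *sug* (61.1 ± 13.6, SD, n = 3 each).

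None of the transcription factors on a list of 13 gut regulators was a member. Of the 13, 8 were lower and none was higher, beside 10.2% lower and 24.2% higher of all tested genes. With the replicate block 9 of the 13 were lower and 1 higher, with *lab* called lower (adjusted p = 0.037, and 0.054 without the block, limma) and *Hnf4* called higher (0.042 and 0.060). *pdm2*, a POU factor of the nubbin pair, had 84.8, 127 and 198 against 18, 10 and 6.89 (log2 fold change -3.46, adjusted p = 0.00088). The other gene of the pair, *nub*, had 1649, 2251 and 3498 against 632, 655 and 907 (log2 fold change -1.70, adjusted p = 0.0050, limma). The GATA factor *GATAe*, which controls gut differentiation, had 3511, 3246 and 3413 against 1503, 1571 and 1697 (log2 fold change -1.09, adjusted p = 0.0014, limma). *cad*, *srp*, *exex* and *Ptx1* had log2 fold changes of -2.09, -1.22, -1.46 and -0.61 and were called as well, *Ptx1* not without *Sox21a* library 2 (adjusted p = 0.069).

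The motor and scaffold group had 5 members. *unc-104*, a kinesin of the type that carries synaptic vesicle precursors, was the third most abundant member by mean value, at 19595, 13350 and 12234 in the control and 844, 883 and 639 in the *Sox21a* libraries. *mira*, the adaptor that segregates fate determinants in dividing neuroblasts, had 1326, 937 and 781 against 86, 25 and 27.5. *SKIP* had 452 ± 85.6 and 31.2 ± 8.52, the Arf-like GTPase gene *dnd* 199 ± 41.4 and 27.2 ± 6.43, and *ktub*, the Tubby homologue, 342 ± 28.4 and 60.3 ± 9.79 (SD, n = 3 each). *CG9394* lies within *ktub*, so 2 members are nested at that site.

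*grim* (3L, 18302719 to 18304417), one of the antagonists of the inhibitor of apoptosis proteins whose release sets off caspases, had the highest ratio of all members, 61.2. It was read at 444, 429 and 431 in the control libraries, a variation of 1.85%, and at 7, 6 and 1.97 in the *Sox21a* libraries. It shares 541 exon bases with the lncRNA gene *CR45975* on the same strand, which was read at 306, 295 and 288 against 5, 6 and 1.97, and 749 bases with the antisense *CR45974*. Without strand information the reads of these genes cannot be told apart.

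Some other cell death genes differed the opposite way. *rpr*, another antagonist of the same kind, was under the detection limit in all control libraries (3.10, 3.35 and 3.10) and read at 184, 96 and 96.4 in the *Sox21a* libraries (adjusted p = 4.7e-05, limma). The caspase genes *Dronc*, *Dcp-1* and *Strica* were higher with log2 fold changes of 1.44, 1.55 and 1.84 (adjusted p = 0.0012, 0.015 and 0.0016). *hid*, the third gene of the group, had 1755, 1958 and 1622 against 1440, 1386 and 991 and was not called (adjusted p = 0.085). Of 11 tested cell death genes 4 were higher and 6 were not called, beside 24.2% of all tested genes higher. The 1 lower gene was *grim* itself, which the rule chose.

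**Figure D3:**
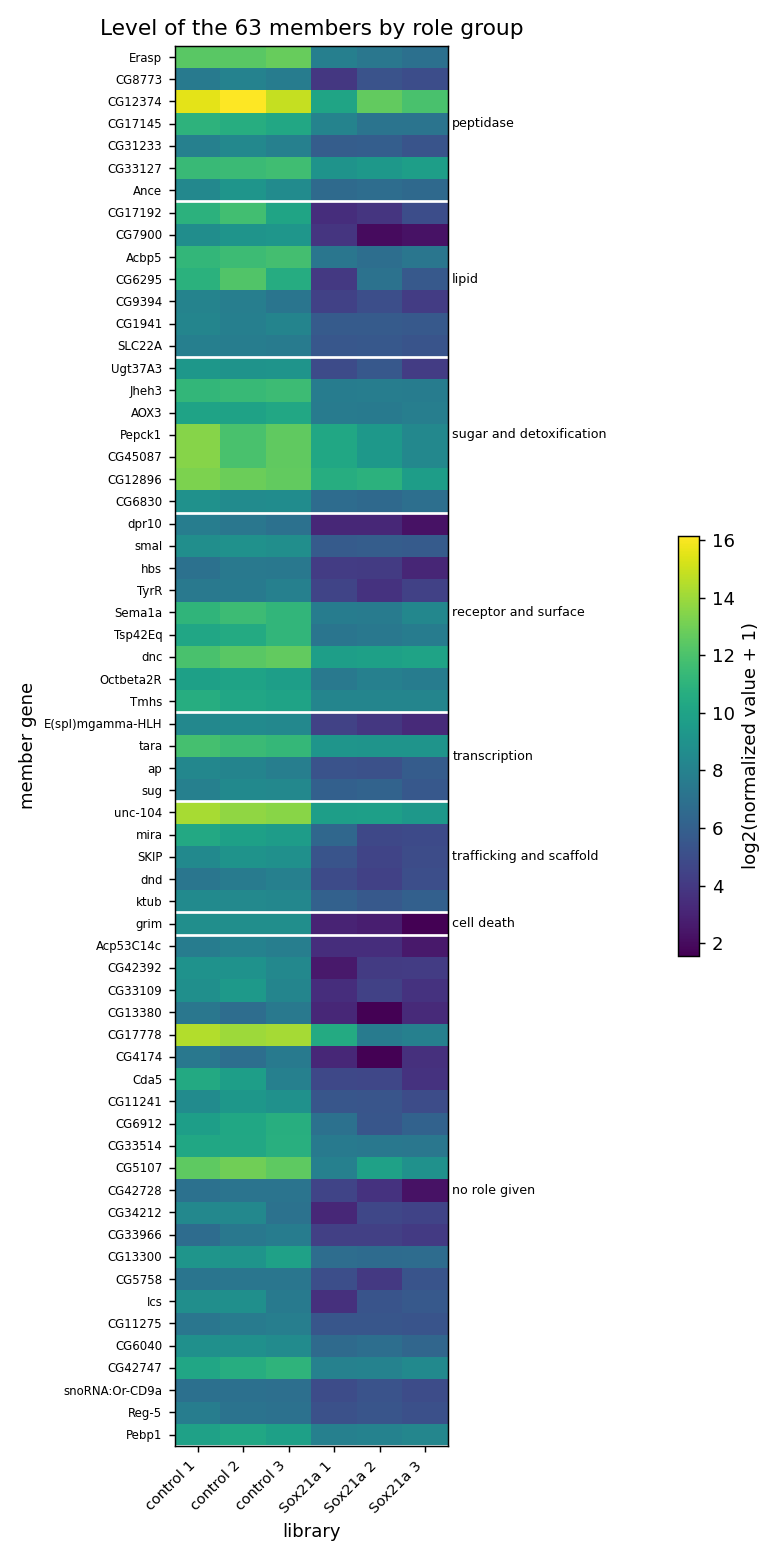
Level of each of the 63 members (rows, by role group and then by ratio) in each library (columns), as log2(normalized value + 1) on the colour scale. CG12374, unc-104 and CG17778 are the brightest rows in the control libraries, and every row is darker in the 3 Sox21a libraries.

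A further 23 members were given no role, because their function is not known with confidence or they fall in none of the groups above. *CG17778* (X, 494614 to 496369) was the most abundant of these, at 22522, 16594 and 18172 in the control and 1447, 201 and 236 in the *Sox21a* libraries. *Sox21a* library 1 was several times the other *Sox21a* libraries there. *CG5107* had 5965, 8106 and 5873 against 243, 975 and 481, and *Cda5*, annotated as a chitin deacetylase, had 1353, 860 and 239 against 26, 24 and 11.8, with the widest control variation of any member, 68.3%. *CG33109* had 480 ± 195 and 13.9 ± 5.33, and *CG4174* and *CG13380*, which overlap over 3428 exon bases, had 156 ± 36.3 and 149 ± 35.1 in control EBs and 6.94 ± 4.50 and 6.28 ± 3.73 in *Sox21a* EBs (SD, n = 3 each).

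The only non-coding member was *snoRNA:Or-CD9a* (2R, 24185825 to 24185922), a small nucleolar RNA gene that lies within the gene *Nop60B*. All of its 98 bases are shared with exon sequence of *Nop60B* on the same strand, so reads of the 2 genes there cannot be told apart. It was read at 123, 121 and 120 in the control and at 30, 38 and 30.5 in the *Sox21a* libraries. Its host *Nop60B* had 5636, 5952 and 8904 against 6381, 6617 and 8475 and did not differ by the test (log2 fold change 0.09, adjusted p = 0.79). The neighbouring *snoRNA:Or-CD9b* and *snoRNA:Me28S-G1083b* were lower, with log2 fold changes of -1.19 and -0.93 (adjusted p = 0.0095 and 0.013, limma). Both were low, at 15.5, 11.2 and 21.7 against 6, 7 and 5.90 and at 14.5, 14.5 and 11.4 against 7, 8 and 4.92. Their *Sox21a* values were at or just above the detection limit. Selection for mRNA limits what is read from snoRNAs.

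The members nearest the threshold from inside were *Pebp1* at a ratio of 3.03, *Reg-5* at 3.08, *Ance* at 3.12, *snoRNA:Or-CD9a* at 3.16 and *CG6830* at 3.23. Just outside were *Ass* at 2.99, *mgl* at 2.96, *AhcyL2* at 2.93, *CG16826* at 2.88 and *Sema2b* at 2.87. On the level, *CG33966* was the lowest inside with 106 in its lowest control library, and *OtopLb* and *CG5348* the nearest outside with 98.3 each.

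In 7 members more than 1 transcript was listed, with 28 others in all, and 27 of these also had a ratio of at least 3. The exception was *Octbeta2R-RA*, with 31.0, 29.0 and 34.1 against 13, 9 and 17.7, a ratio of 1.64. Transcripts of a gene share reads, so these are not separate measurements. The other transcripts of *dnc* had ratios from 3.14 to 4.15 and those of *Sema1a* from 6.49 to 6.85.

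The order of the libraries was also counted over the members. The rule takes the lowest control and the highest *Sox21a* value, so it can shape this order, which is no separate trait of the members. Library scaling enters it too. The rescaling factor was 1.14 for *Sox21a* library 3 and 1.03 and 1.04 for *Sox21a* libraries 1 and 2, and its part was not tested. Control library 2 was the highest control for 21 members (33.3%) and for 14.8% of all 6853 genes with a lowest control value of at least 100. *Sox21a* library 3 was the highest *Sox21a* library for 16 members (25.4%) and for 62.3% of those genes. The median variation among control libraries was 20.0% for members and 15.5% for those genes.

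Levels were also compared per length. Per kilobase of exon, the median member's control level was above 54.5% of tested coding genes, and 10 members were above more than 90% of them. The rule asks for a control minimum of 100 and the test only for a mean of 10, so the rule shapes this standing. The 10 count *Pepck1* and *CG45087*, which are 1 measurement, separately. The lowest member was *hbs* at 28.4 per kilobase, above 17.3%. The value of 1 transcript was divided by the merged exons of its gene. This can make the level too small where a gene has several transcripts, as *hbs*, *dnc* and *Sema1a* do.

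Of the members, 20 lay on 2R (31.7%, beside 20.8% of tested genes), 20 on 3R (31.7%, beside 24.3%), 14 on 3L (22.2%, beside 19.8%), 6 on 2L (9.52%, beside 17.5%) and 3 on the X (4.76%, beside 16.8%). None was on chromosome 4. On 3L, which carries *Sox21a*, the nearest member was *CG42728*, 1.42 Mb from it, and *grim* was 4.2 Mb from it. Exon bases were shared with another gene by 17 members, in 11 cases on the same strand.

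Neighbouring genes were then examined, as a description with no test of their share. Of 82 tested non-member genes that were the nearest within 10 kb on either side, 25 (30.5%) were lower, beside 10.2% of all tested genes. A further 11 of the 82 were higher, beside 24.2% of all tested genes. The median log2 fold change of the 82 was -0.11, beside 0.24 over all tested genes. Several of the 82 were of the same family as the member beside them. Some of these genes lie close enough for reads to be shared, a part that was not tested. *CG33460*, 3078 bases from *Erasp*, had 32.1, 52.5 and 53.8 against 3, 4 and 5.90 (adjusted p = 0.00029), and *whe*, 5023 bases from *lcs*, had 751, 908 and 175 against 16, 76 and 30.5 (adjusted p = 0.0078, limma). *Dgat2* beside *CG1941*, *CG31343* beside *CG31233*, *CG6834* beside *CG6830* and *CG4462* beside *mira* had log2 fold changes of -1.54, -1.63, -1.94 and -1.95 and were called. In the other direction *Ance-3*, 5513 bases from *Ance*, was higher, with 2.07, 5.58 and 5.17 against 51, 32 and 25.6.

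**Figure D4:**
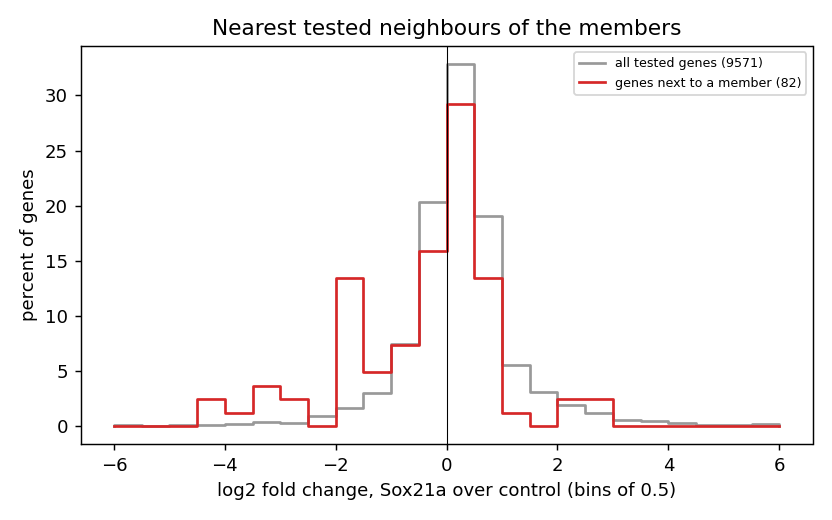
Percent of genes (y axis) by log2 fold change, Sox21a over control, in bins of 0.5 (x axis), for all 9571 tested genes in grey and for the 82 non-member genes next to a member in red. The red line stands above the grey one between -2 and -1 and below -2.5, and 30.5% of its genes were called lower beside 10.2%.

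The densest site was on 2R around *unc-104* (16751503 to 16772671), where 3 members lie together. *Acp53C14c*, a gene of the male accessory gland protein family, starts at 16750776 and ends 8 bases before *unc-104*, with 208, 259 and 221 against 10, 10 and 4.92. *CG42392*, inside *unc-104* and on its strand, shares 168 exon bases with it and had 511, 505 and 328 against 5, 16 and 16.7. *unc-104* itself had a control level of 1867 per kilobase, above 88.9% of tested coding genes.

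All 6 other tested genes from *Sfp53D* to the start of *unc-104* were lower as well, beside 10.2% of all tested genes. The filter shapes this count. *Sfp53D*, *Acp53C14b*, *Acp53Ea*, *CG15617* and *CG5267* had *Sox21a* values under 10, so they reached the mean of 10 only through their control values. *Acp53C14a* and *CG34189*, low in both groups at this site, were not tested. *Sfp53D* had 22.8, 17.9 and 17.6 in the control and the smallest listed value in each *Sox21a* library, 2, 2 and 1.97 (adjusted p = 5.5e-05). *Acp53C14b* had 16.5, 58.1 and 56.9 against 4, 3 and 2.95 (adjusted p = 0.0022), and *Acp53Ea* had 9.31, 33.5 and 29.0 against 2, 2 and 2.95 (adjusted p = 0.0037, limma). For these genes every *Sox21a* value was at or under the detection limit, so no fold is given.

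*CG15617* had 12.4, 13.4 and 20.7 against 4, 6 and 3.93 (adjusted p = 0.0034). *CG5267* and *CG5348* lie within *unc-104* on the opposite strand, with 33.1, 65.9 and 59.0 against 5, 7 and 5.90 (adjusted p = 0.00039) and with 113, 126 and 98.3 against 8, 23 and 3.93 (adjusted p = 0.0027, limma). Strand is not stated for the counting, so reads of *unc-104* and of these genes cannot be told apart where they overlap.

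On the side of its start the next tested genes were not called. *Sod2*, whose span begins 114 bases beyond *unc-104*, had 2006, 1930 and 2258 against 2265, 2551 and 3659 (log2 fold change 0.42, adjusted p = 0.15), and *RalGPS* after it had a log2 fold change of 0.03 (adjusted p = 0.87). *Pgant9*, on the far side of *Sfp53D*, had 1011, 1705 and 2042 against 735, 1042 and 1048 (log2 fold change -0.71). Its adjusted p by limma was 0.098, or 0.028 with the replicate number as a block and 0.013 without control library 1. Between these genes the site holds 9 tested genes, each with all *Sox21a* values below all control values, beside 15.2% of all tested genes. The members among them have this by the rule, and the site was picked because members lie together there. Most of the other genes among them passed the filter only through their control values, which favours this order.

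**Figure D5:**
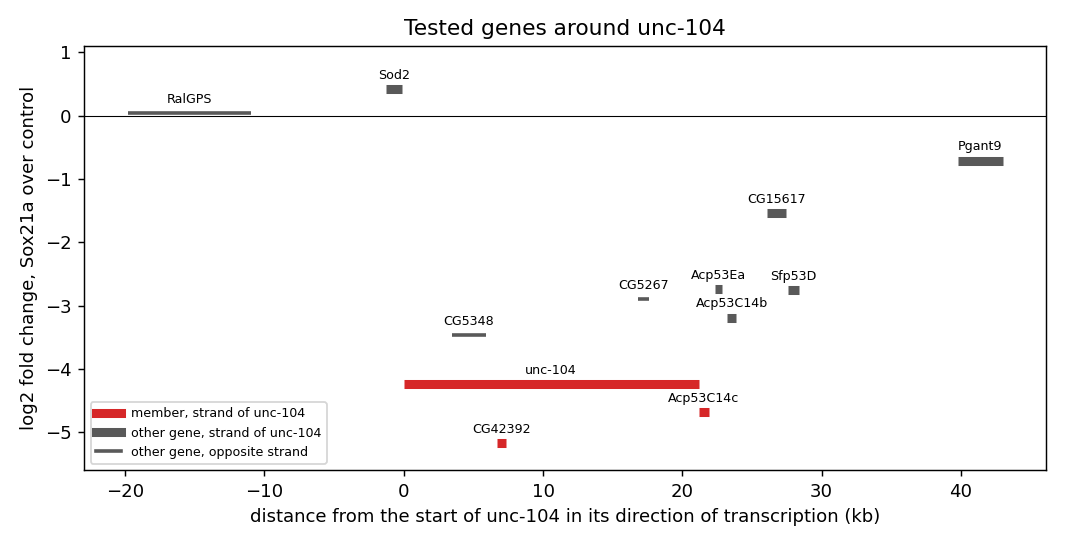
Log2 fold change, Sox21a over control (y axis), of each tested gene around unc-104 by its distance from the start of unc-104 in the direction of its transcription (x axis, kb), with members in red, other genes in grey and genes on the opposite strand as thin lines; Pgant9 extends beyond the right edge of its drawn line. The 9 tested genes from unc-104 to Sfp53D lie at -1.53 or lower, while Sod2 is at 0.42, RalGPS at 0.03 and Pgant9 at -0.71. The positions of Sfp53D, Acp53C14b and Acp53Ea are uncertain, because their Sox21a values were at or under the detection limit.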

How the data were processed

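RNA-seq values of 3 control and 3 *Sox21a* libraries were used. The authors aligned read pairs by Bowtie2 (genome release 6), counted those in exons and normalized by size factors. The deposited unit is a signal, given for 19674 transcripts as normalized reads. The smallest value of a library is 2 steps, and whether 2 was added or set as a floor is not given in the sources used here. A second deposited table, with the authors' group means, variances, log2 fold changes, p-values and adjusted p-values, was not used. All per-library columns were used (0 left out).

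The members, gene lists and role groups were chosen with earlier results of these data known. Tests were made with limma 3.58.1 (R 4.3.3; lmFit and eBayes, no trend) on log2(value + 1). The 11400 transcripts averaging 10 or more entered, Benjamini-Hochberg adjustment was over all of them, and the threshold was an adjusted p under 0.05. A gene was counted by its most abundant transcript. The pseudocount makes the fold changes of low genes too small. The fit was tested on simulated data. Deviations of same-numbered control and *Sox21a* libraries correlated at 0.171, 0.129 and 0.124, so the replicate numbers of the sample labels were also used as a block. Nothing says more of how replicates were separated than that each was a pool of flies. Because reads were amplified, detection limits cover counting error only.

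Named members are those highest in control EBs, largest in ratio, nearest the threshold, on a list or with a known role. Neighbouring, overlapping and related genes were named after their values were seen. Positions, found for 17138 of 17321 genes, come from Ensembl's BDGP6 annotation, the Release 6 assembly. Alternatives were other thresholds, pseudocounts of 0.1 and 10, other filters, rescaling, the block and each library left out. Tables and plots were made in Python 3.11.15 with matplotlib 3.10.9, numpy 2.4.6 and pandas 2.3.3.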

Additional observations from a re-analysis of the deposited data

How the results depend on the processing

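The rule gave 145 members at 2 times and 45 at 4 times, 78 and 46 with control minimums of 50 and 200, and 86 with rescaled libraries. Leaving out each library gave 68 to 106, the highest without control library 1. Since the rule takes the lowest control and the highest *Sox21a* value, leaving out a library can only keep or add members. These counts could therefore not fall below 63 and do not check the members. Of all tested genes, 466 were lower and 1113 higher at an adjusted p under 0.01, 572 and 1212 with at least a 2-fold change, and 963 higher with rescaling and a 2-fold change; leaving out each library gave 622 to 1204 lower and 1419 to 3013 higher, with 622 lower without *Sox21a* library 1 and 631 without *Sox21a* library 2, and 1419, 1484, 1539 and 1523 higher without *Sox21a* libraries 2, 1 and 3 and control library 2. Of the genes on the functional lists, 30 were lower and 14 higher. At an adjusted p under 0.01 these were 19 and 5, the higher count was 8 with rescaling and 7 with rescaling and a 2-fold change, and leaving out each library gave 21 to 44 lower and 8 to 13 higher. Genes next to members called lower numbered 15 at an adjusted p under 0.01, 10 with a mean of at least 100, which leaves fewer genes to test, and 18 to 27 with each library left out. With the replicate block, 1038 genes were lower and 2489 higher. Of the non-member genes tested by name, it changed calls for 18, among them *Pepck2*, *N*, *Pgant9*, *Amy-d*, *LManI*, *lab*, *Hnf4*, *Tsp42Er*, *LysB* and *LysD*, given here, and it changed no call of another non-member gene whose values are given. The causes of these changes were not tested. The calls of *Mal-A6*, *tobi*, *LysC*, *Amy-d* and *LManI* were lost when 1 library was left out, for between 2 and 5 of the 6 libraries. No result reversed under the alternatives run.

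Current symbols in place of those in the deposited table gave 67 members, and counting members that overlap fully once gave 61; both were chosen after seeing the data. Count models and the promoter motif alternative were not run. With 3 libraries a group, an exact permutation test cannot go below p = 0.10.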

Other observations

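Some lists of gut functions hold no member. Of 13 tested solute transporter genes 4 were lower and 1 higher, beside 10.2% lower and 24.2% higher of all tested genes. The lower count of transporters was 1 without *Sox21a* library 2, 2 without *Sox21a* library 3 and 7 without control library 1. The copper importer gene *Ctr1B* had 350, 349 and 361 against 80, 89 and 131 (log2 fold change -1.84, adjusted p = 0.00076, limma). *Npc2a*, a sterol binding protein gene, had 4758, 3021 and 2198 against 13829, 12995 and 15314 (log2 fold change 2.15, adjusted p = 0.0015, limma). Of 6 lysozyme genes tested, *LysP* was lower and *LysC* and *LysX* were higher, *LysC* with rescaled libraries not (adjusted p = 0.072, limma). *LysB* and *LysD* were not called, but were with the replicate block (higher, adjusted p = 0.039 and 0.028, limma) and without *Sox21a* library 1. How reads that match several of these related genes were assigned is not given, so *LysB*, *LysC* and *LysD* may not be separate measurements.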
